A study of Mus musculus with 20 samples.

Results

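Granule cells are the most numerous neurons of the cerebellum. They receive mossy fibre input and send parallel fibres to the dendrites of Purkinje cells (PCs), the output neurons of the cerebellar cortex. Their identity rests on a set of transcription factors kept from development into adult life, and their excitability on GABA-A and NMDA receptors with subunits that few other cerebellar cells use. Here 10 genes known for their expression in granule cells were followed across the 5 conditions of the study. They are the receptor subunit genes Gabra6, Gabrd and Grin2c, the transcription factor genes Neurod1, Zic1, Zic2, Pax6 and Etv1, the cadherin gene Fat2 and the vesicle release gene Cadps2. The genes were taken as a named list, matched by symbol to 1 Ensembl identifier each, out of 21897 protein-coding genes in the count table. All 10 had enough reads to be tested in each comparison.

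RNA came from the whole cerebellum of C57BL/6J mice, with 1 cerebellum in each of 20 libraries. At 9 weeks after injection the study sampled 3 untreated WT mice and 3 WT mice treated with AAV-shA4, a PHP.eB adeno-associated virus that carries eGFP under a CMV promoter and a short hairpin RNA against CAG repeats under an H1 promoter. At the time labelled 25 weeks it sampled 4 untreated WT mice, 5 SCA7 140Q/5Q knock-in mice treated with AAV-shSCR, the same vector with a scrambled hairpin, and 5 SCA7 140Q/5Q knock-in mice treated with AAV-shA4. SCA7 140Q/5Q mice carry a CAG expansion in 1 Atxn7 allele and a normal mouse allele. The virus was given into the retro-orbital sinus of young mice, and untreated mice received saline. No SCA7 mouse was left without virus and no late WT mouse received it, so the knock-in allele and the vector cannot be told apart in the comparisons with WT mice. In the histology of the study granule neurons carried little eGFP, which has a promoter other than that of the hairpin. The part of the vector in the levels of these genes was not tested.

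Libraries held from 31465586 to 54570503 counted reads, and each granule cell gene had between 4339 and 57264 reads in a library. Counting error is therefore small beside the spread between mice. Reads of bulk tissue cannot tell fewer granule cells from less RNA per granule cell, and a level here is also relative to the RNA of all other cells. Levels are given in CPM, read counts scaled to library size with edgeR's TMM factors. Changes are given as log2 values of the fold change (FC) with their standard errors (SE), and adjusted p-values are those of edgeR's quasi-likelihood test after Benjamini-Hochberg (BH) correction. Atxn7 lay between 37.6 and 43.1 CPM in the early and between 44.4 and 53.4 CPM in the late mice, with overlap of the treated and untreated groups at both times, and these counts do not separate the 2 alleles of the knock-in mice.

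Untreated WT replicate 1 of the 25-week group stood apart before any comparison. It was the lowest of its 4 mice for all 10 granule cell genes, with a sum of 4245.52 CPM over the 10 genes against 4864.19 to 5005.18 CPM in the other 3 mice. In the same way untreated WT replicate 3 of the 9-week group was the lowest of 3 for 9 of the 10 genes, and AAV-shA4-treated SCA7 replicate 1 the lowest of 5 for 8 genes. Of these mice, the first and the last also carried the most RNA of brainstem and midbrain markers. Over 8 such genes late WT replicate 1 had 81.4 CPM in sum against 18.1 to 23.7 CPM in the other 3 mice of its group, and AAV-shA4-treated SCA7 replicate 1 had 75.9 CPM against 21.9 to 32.3 CPM. The 9-week replicate 3 had 23.4 CPM, the lowest of its group, and the AAV-shSCR-treated SCA7 mice had 15.5 to 20.7 CPM. The part of this tissue in the low granule cell values was not tested. Calls that change without 1 of these mice are given beside the results.

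The 10 genes were among the more highly expressed genes of the tissue. In mean CPM over the 20 libraries, they lay between the 90.0th percentile (Pax6) and the 99.7th percentile (Zic1) of the genes with at least 1 read. To compare genes, CPM was divided by the median transcript length in kilobases. On this per-length scale Zic1 was the highest, with a mean over the 5 conditions of 372 CPM per kb, followed by Gabra6 with 329 CPM per kb. Etv1 (174 CPM per kb), Zic2 (165 CPM per kb), Neurod1 (157 CPM per kb) and Gabrd (126 CPM per kb) formed a middle range. Pax6 (93.2 CPM per kb), Grin2c (86.1 CPM per kb), Cadps2 (84.7 CPM per kb) and Fat2 (62.3 CPM per kb) were the lowest. The order depends on the length used. With the longest transcript Gabra6 was the highest, at 325 CPM per kb against 187 CPM per kb for Zic1, and Etv1 fell to the ninth place, at 49.3 CPM per kb.

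**Figure D1:**
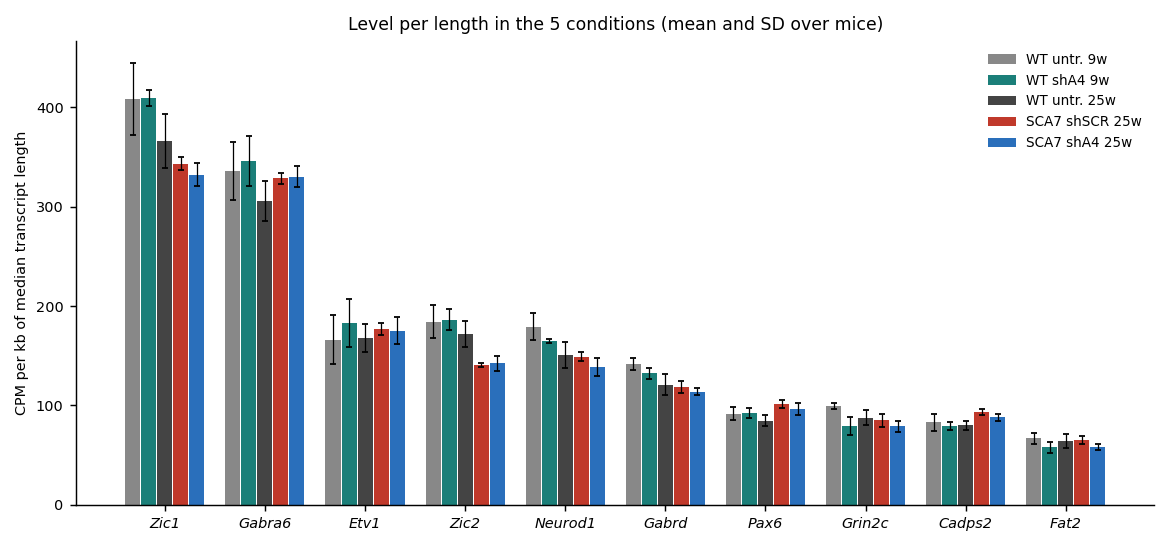
Level per length (CPM per kb of the median transcript length, y axis, from 0) of the 10 granule cell genes (x axis, ordered by level) in the 5 conditions. Bars are means and error bars SDs over 3 to 5 mice. Zic1 and Gabra6 stand above 300 CPM per kb in each condition, and differences between genes are far larger than differences between conditions.

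Mice of a condition varied slightly more in these genes than in most others. The SD between mice of a condition, pooled over the 5 conditions on the log2 scale, was 0.0787 for Gabrd, the steadiest, and 0.156 for Etv1, the most variable. The median over the 10 genes was 0.0906, against 0.0736 over the 10139 genes with a mean of at least 10 CPM.

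The DNA before the transcription starts of the granule cell genes is shown for Pax6 and Cadps2, which rose in the SCA7 mice, and for Gabra6, the subunit gene most restricted to granule cells. The sequences are the 250 bases before the annotated start, read 5′ to 3′ on the strand of the gene, from RefSeq (build GRCm38.p6). Capitals mark E-boxes, CANNTG, the kind of site bound by basic helix-loop-helix factors such as NEUROD1, and NFI half-sites, TTGGC or its reverse complement GCCAA. NFI factors act in granule cell maturation.
Pax6, upstream start, chr2:105668646-105668895, plus strand: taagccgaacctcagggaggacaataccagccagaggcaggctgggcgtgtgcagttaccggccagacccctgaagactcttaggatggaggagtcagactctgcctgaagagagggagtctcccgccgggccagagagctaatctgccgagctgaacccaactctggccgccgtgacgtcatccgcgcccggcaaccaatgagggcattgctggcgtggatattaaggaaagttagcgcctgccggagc
Pax6, downstream start, chr2:105682213-105682462, plus strand: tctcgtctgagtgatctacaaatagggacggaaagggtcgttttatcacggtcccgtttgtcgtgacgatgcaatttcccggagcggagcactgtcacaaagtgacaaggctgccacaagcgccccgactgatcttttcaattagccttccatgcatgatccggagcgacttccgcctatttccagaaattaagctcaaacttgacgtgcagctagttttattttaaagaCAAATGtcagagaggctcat
Cadps2, chr6:23839422-23839671, minus strand: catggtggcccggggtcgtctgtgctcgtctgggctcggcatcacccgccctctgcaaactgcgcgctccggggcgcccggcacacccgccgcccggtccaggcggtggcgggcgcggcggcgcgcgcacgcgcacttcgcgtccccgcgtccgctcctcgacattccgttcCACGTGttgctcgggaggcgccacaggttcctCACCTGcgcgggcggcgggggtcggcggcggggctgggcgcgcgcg
Gabra6, chr11:42321073-42321322, minus strand: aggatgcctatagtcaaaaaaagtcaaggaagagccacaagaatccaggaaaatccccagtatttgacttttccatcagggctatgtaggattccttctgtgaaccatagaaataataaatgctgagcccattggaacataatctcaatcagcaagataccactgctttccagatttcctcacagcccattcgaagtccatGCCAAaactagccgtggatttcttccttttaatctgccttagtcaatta

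The windows differ in kind. The Cadps2 window is 78% G and C and holds 2 E-boxes, whereas the Gabra6 window is 40.8% G and C with no E-box and 1 NFI half-site. Of 32851 RefSeq windows of this length, 66.2% hold an E-box and 41.5% an NFI half-site on either strand, so neither letter pattern marks out these genes. The table had windows for 8 of the 10 genes, with no entry for Gabrd or Zic2.

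The comparison of AAV-shSCR-treated SCA7 mice with untreated WT mice asks how the granule cell genes stand in the disease at 25 weeks. Zic2 fell, Pax6 and Cadps2 rose, and the other 7 genes did not pass the test. These are small changes, of 16.7% to 20.1% in the called genes. Among 14862 genes fitted in edgeR, 3 of 10 members were called at adjusted p under 0.05, where 15.5% of all genes tested were called. Of the 3, 1 was lower (8.65% of all genes) and 2 were higher (6.89% of all genes). None of the 10 also passed an FC above 1.3, which 4.02% of all genes did. The median log2 FC of the 10 genes was 0.004, against 0.002 for all genes.

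Zic2 (ENSMUSG00000061524, build GRCm38, chromosome 14 from 122475435 to 122479852, plus strand) encodes a zinc-finger transcription factor of granule cell precursors and their adult progeny. Its level was 231, 226, 222, 225 and 223 CPM in the AAV-shSCR-treated SCA7 mice and 244, 286, 282 and 288 CPM in the untreated WT mice. Each SCA7 mouse lay below each WT mouse, and the lowest WT value was that of replicate 1. The means were 225 ± 3.43 CPM (n = 5, SD) and 275 ± 20.8 CPM (n = 4, SD). The log2 FC was −0.29 (SE 0.046, edgeR BH-adjusted p = 0.000377), and an exact two-sided permutation test over the 9 mice gave p = 0.00794, the smallest it can give. Without any 1 of the late mice the log2 FC stayed between −0.34 and −0.26 and the call held in 14 of 14 fits. Here and below, the 14 fits left out each late mouse in turn, those of the late group not compared included. Mice of that group enter only the scaling, the filter and the estimate of the spread.

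Zic1 (ENSMUSG00000032368, chromosome 9 from 91358058 to 91365810, minus strand), the close relative of Zic2 with the highest level per length, was less different. It had 994, 969, 961, 960 and 944 CPM in the AAV-shSCR-treated SCA7 mice and 919, 1057, 1052 and 1093 CPM in the WT mice. The SCA7 mice lay below 3 of the WT mice and above replicate 1. The log2 FC was −0.09 (SE 0.043, edgeR BH-adjusted p = 0.166), and without WT replicate 1 it was −0.14 with adjusted p = 0.00968 in edgeR.

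A ratio within a library is free of library scaling. The log2 ratio of Zic2 to Zic1 CPM was −1.90 ± 0.016 (n = 4, SD) in the late WT mice, where it ran from −1.92 to −1.89, replicate 1 included. In the AAV-shSCR-treated SCA7 mice it was −2.10 ± 0.014 (n = 5, SD), from −2.11 to −2.08. The groups did not overlap, and the difference of −0.19 had p = 0.00794 in an exact two-sided permutation test, the smallest it can give, or 0.0159 after Benjamini-Hochberg adjustment over the 4 ratio tests made. The ratio was chosen after the values of the genes were seen.

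Zic5, a paralogue that lies 9757 bases from Zic2 on the opposite strand, went the other way. Its level was 36.4 ± 1.90 CPM (n = 5, SD) in the AAV-shSCR-treated SCA7 mice and 30.9 ± 1.92 CPM (n = 4, SD) in the WT mice, a log2 FC of 0.24 (SE 0.061, edgeR BH-adjusted p = 0.0138). Zic4 overlaps Zic1 on the opposite strand and held 6.22% as many reads as Zic1. It was at 64.0 ± 0.994 CPM against 60.1 ± 6.38 CPM, with a log2 FC of 0.09 (adjusted p = 0.365 in edgeR).

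Pax6 (ENSMUSG00000027168, chromosome 2 from 105668900 to 105697364, plus strand) encodes a paired-box and homeodomain factor of granule cells from the rhombic lip onward. Its level was 136, 140, 132, 148 and 137 CPM in the AAV-shSCR-treated SCA7 mice and 105, 116, 122 and 120 CPM in the WT mice. Each SCA7 mouse lay above each WT mouse. The means were 139 ± 5.73 CPM (n = 5, SD) and 116 ± 7.82 CPM (n = 4, SD), a log2 FC of 0.26 (SE 0.049, edgeR BH-adjusted p = 0.00141). The antisense gene Pax6os1 held 1.13% as many reads as Pax6, and without WT replicate 1 the log2 FC was 0.22 and still called.

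Cadps2 (ENSMUSG00000017978, chromosome 6 from 23262773 to 23839421, minus strand) encodes a protein that primes dense-core vesicles for release and supports neurotrophin secretion from granule cells. It had 363, 358, 359, 389 and 366 CPM in the AAV-shSCR-treated SCA7 mice and 291, 335, 316 and 316 CPM in the WT mice. The groups did not overlap. The means were 367 ± 12.8 CPM (n = 5, SD) and 315 ± 18.3 CPM (n = 4, SD), and the log2 FC was 0.22 (SE 0.041, edgeR BH-adjusted p = 0.00123). In this comparison the groups did not overlap in 3 of the 10 genes, Zic2, Pax6 and Cadps2, and in 16.8% of all genes.

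Gabra6 (ENSMUSG00000020428, chromosome 11 from 42306437 to 42321072, minus strand) encodes the α6 GABA-A receptor subunit, which in the cerebellum is restricted to granule cells. It had 802, 813, 812, 799 and 779 CPM in the AAV-shSCR-treated SCA7 mice and 679, 778, 733 and 787 CPM in the WT mice. The SCA7 mice lay above 3 of the WT mice and overlapped with the highest. The log2 FC was 0.11 (SE 0.040, edgeR BH-adjusted p = 0.0844), and DESeq2 put the adjusted p at 0.0427. Without WT replicate 4 edgeR called it too, with a log2 FC of 0.13 (adjusted p = 0.0493).

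The partner subunits of these receptors did not follow Gabra6. Gabrd, which encodes the δ subunit of the extrasynaptic receptors that carry tonic inhibition, was at 228 ± 10.9 CPM (n = 5, SD) against 232 ± 20.01 CPM (n = 4, SD), a log2 FC of −0.03 with a 95% interval of −0.13 to 0.08. Grin2c, which encodes the GluN2C subunit of mature granule cell NMDA receptors, was at 390 ± 31.6 CPM against 402 ± 33.7 CPM, with an interval of −0.18 to 0.09. Among the other GABA-A subunit genes, Gabra4 was lower, with a log2 FC of −0.25. Of 6 other NMDA subunit genes, 1 was lower, Grin1, the obligate subunit, with −0.13.

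Neurod1 and Fat2 lay within the range of the WT mice, whereas for Etv1 2 SCA7 mice lay above the highest WT mouse. Neurod1, which encodes a basic helix-loop-helix factor of differentiating and mature granule cells, was at 406 ± 12.2 CPM (n = 5, SD) against 412 ± 35.9 CPM (n = 4, SD). Fat2, which encodes an atypical cadherin on parallel fibres, was at 942 ± 57.0 CPM against 924 ± 104 CPM. Etv1, which encodes an ETS factor of granule cell maturation, was at 330 ± 11.5 CPM against 313 ± 26.3 CPM. The 95% intervals of their log2 FCs were −0.13 to 0.10, −0.11 to 0.17 and −0.05 to 0.20.

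**Figure D2:**
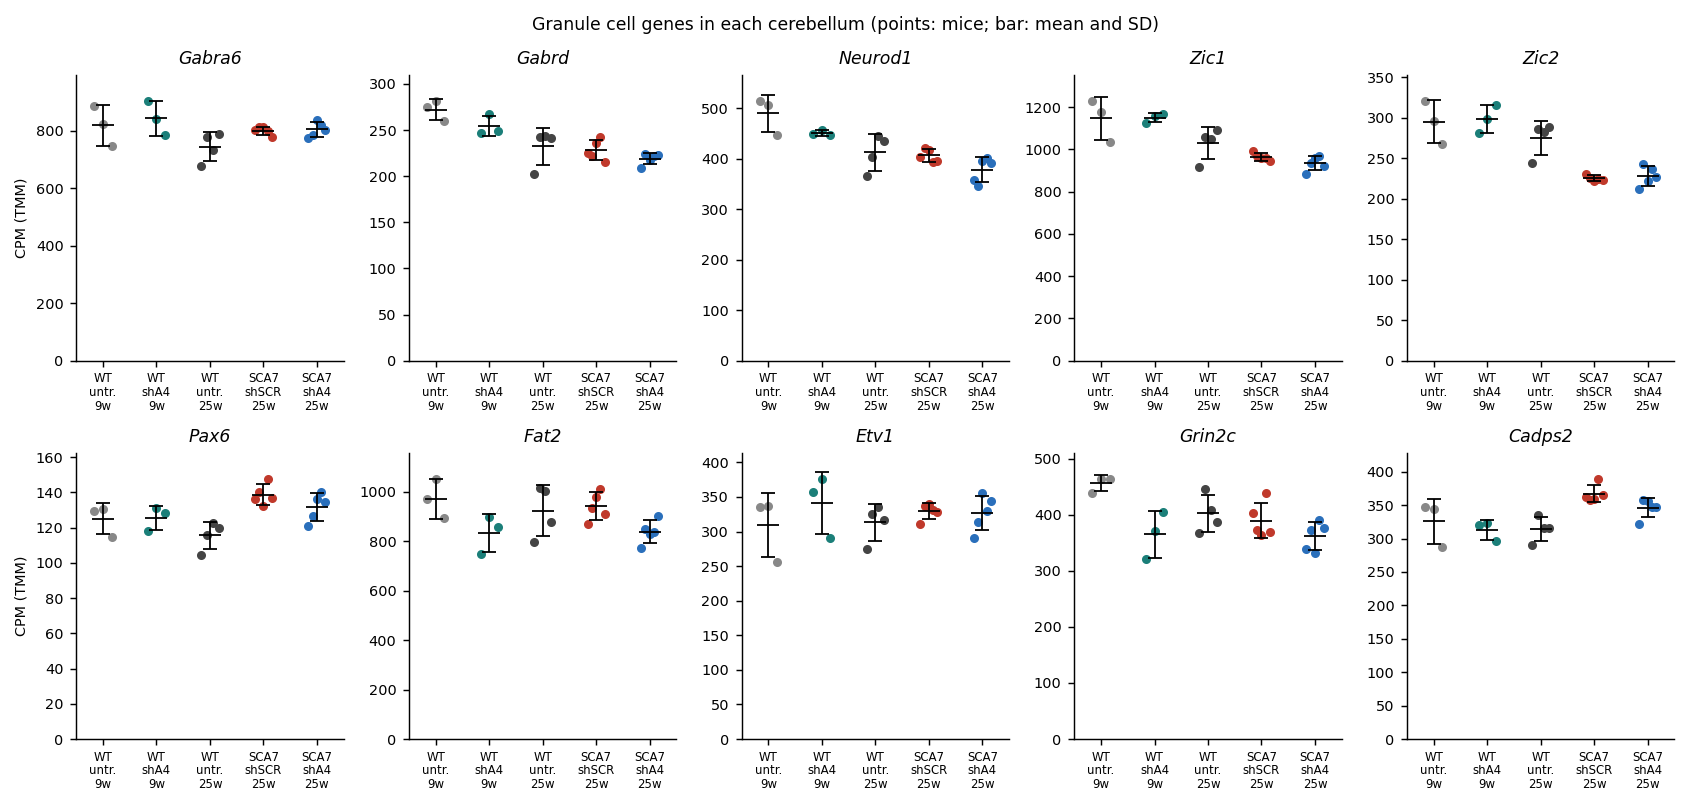
Level (CPM with TMM, y axes from 0) of each granule cell gene in each of the 20 mice, in the 5 conditions (x axes). Points are mice, and black bars give the mean and SD. The SCA7 mice sit below the late WT mice for Zic2, above them for Pax6 and Cadps2 with AAV-shSCR, and the first late WT point is the lowest of its group in each panel.

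The comparison of AAV-shA4-treated SCA7 mice with the same untreated WT mice asks how these genes stand after treatment with the active hairpin. Zic2 and Zic1 were lower, and Pax6 and Cadps2 higher. Of the 10 genes 4 were called, 2 lower and 2 higher, where 13.6% of all 14862 genes were called, 8.11% lower and 5.47% higher. None passed an FC above 1.3, as 3.45% of all genes did. The median log2 FC of the 10 genes was −0.10, against 0.01 for all genes. Since the 2 SCA7 groups share the WT mice, their changes against WT are not independent of each other.

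Zic2 had 212, 243, 222, 237 and 227 CPM in the AAV-shA4-treated SCA7 mice, all below the lowest WT value of 244 CPM. The mean was 228 ± 11.9 CPM (n = 5, SD), and the log2 FC −0.27 (SE 0.046, edgeR BH-adjusted p = 0.000704). Zic2 was the 1 granule cell gene of 10 whose groups did not overlap here, as was the case for 13.4% of all genes. The call held in 14 of 14 fits that left out a mouse.

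The log2 ratio of Zic2 to Zic1 was −2.03 ± 0.057 (n = 5, SD) in these mice, from −2.11 to −1.95, below each WT mouse. The difference from WT was −0.13 (exact two-sided permutation p = 0.0159, adjusted 0.0159 over the 4 ratio tests). The ratio of Zic2 to Zic5 differed more, by −0.44 with AAV-shA4 and −0.52 with AAV-shSCR, and neither SCA7 group overlapped with WT mice. Zic2 and Zic5 were paired after they were seen to move in opposite directions, so this ratio restates their changes.

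Pax6 had 121, 127, 136, 140 and 135 CPM with AAV-shA4, and 1 of the 5 mice fell within the WT range. The mean was 132 ± 7.82 CPM (n = 5, SD), and the log2 FC 0.19 (SE 0.049, edgeR BH-adjusted p = 0.0169). Cadps2 had 322, 357, 356, 348 and 347 CPM, again with 1 mouse within the WT range. Its mean was 346 ± 14.2 CPM (n = 5, SD), and its log2 FC 0.14 (SE 0.041, edgeR BH-adjusted p = 0.0350).

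Both calls rest in part on WT replicate 1. Without that mouse Pax6 had a log2 FC of 0.14 (adjusted p = 0.0527 in edgeR) and Cadps2 0.10 (adjusted p = 0.108 in edgeR). In the same fit Gabrd (−0.15), Neurod1 (−0.18) and Fat2 (−0.20) passed the threshold as lower, with adjusted p of 0.0141, 0.0229 and 0.0283 from edgeR. Cadps2 lost its call in 7 of 14 fits without 1 mouse, those without AAV-shA4-treated replicate 2, 3, 4 or 5 or WT replicate 1, 3 or 4, where its log2 FC was between 0.10 and 0.14.

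Zic1 had 885, 937, 958, 970 and 923 CPM with AAV-shA4. Its mean was 934 ± 33.1 CPM (n = 5, SD) against 1030 ± 76.1 CPM (n = 4, SD), and its log2 FC −0.14 (SE 0.043, edgeR BH-adjusted p = 0.0396). All 5 mice lay below 3 WT mice, but 4 of them lay above WT replicate 1. The call was lost in 6 of 14 fits without 1 mouse, those without AAV-shA4-treated replicate 1, 2 or 5 or WT replicate 2, 3 or 4, where the log2 FC was between −0.14 and −0.11. It was also lost with library totals in place of TMM scaling, where the log2 FC was −0.10 (adjusted p = 0.117 in edgeR).

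Of the members that were not called, Gabra6 again lay high, at 805 ± 26.3 CPM (n = 5, SD) against 745 ± 49.7 CPM (n = 4, SD), with a log2 FC of 0.11 (adjusted p = 0.0739 in edgeR). DESeq2 called it, with an adjusted p of 0.0299, and so did edgeR without WT replicate 4, with a log2 FC of 0.14 (adjusted p = 0.0452). Gabrd, Neurod1, Fat2 and Grin2c had log2 FCs of −0.08, −0.12, −0.14 and −0.15, and Etv1 had 0.06. Among the partner subunits Gabra2 (−0.23), Gabra4 (−0.17) and Grin1 (−0.14) were lower, and none was higher.

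**Figure D3:**
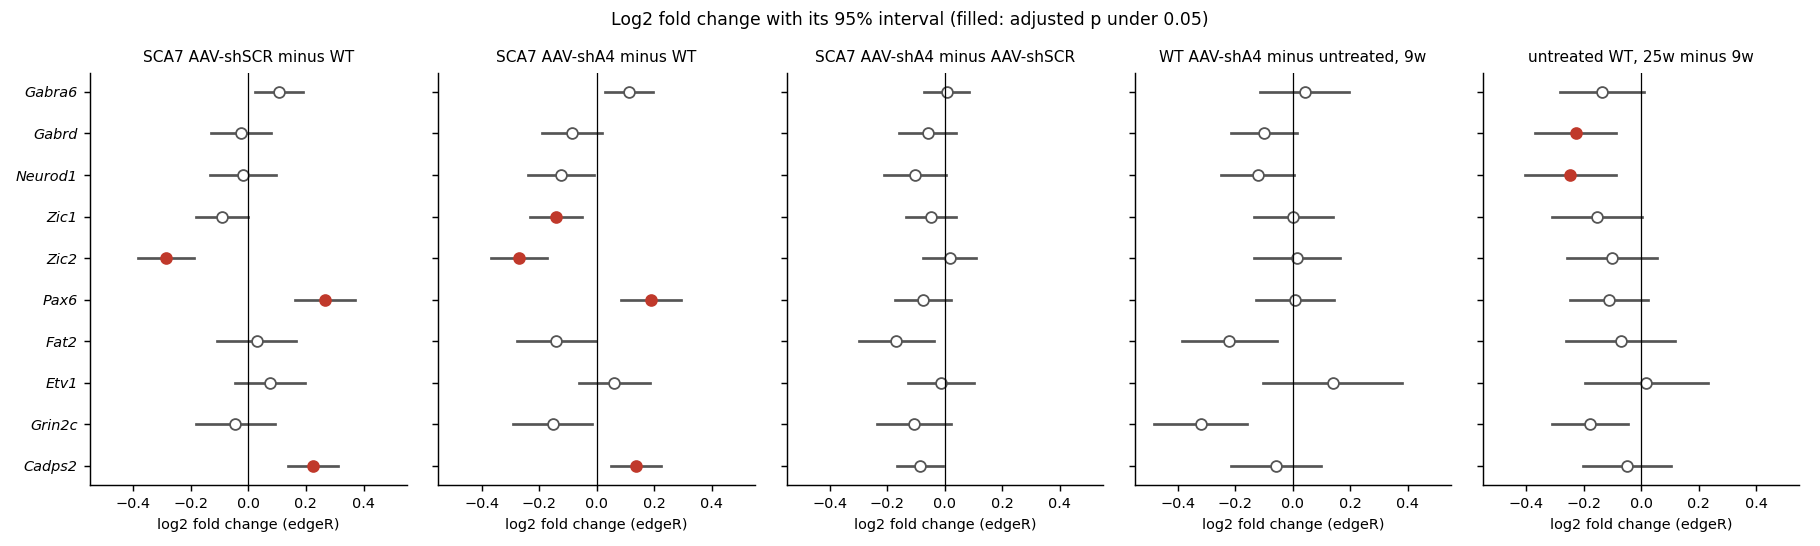
Log2 fold change from edgeR (x axes) of the 10 granule cell genes (y axis) in the 5 comparisons, with 95% intervals as lines. Filled red points passed adjusted p under 0.05. Zic2 is lower and Pax6 and Cadps2 are higher in both SCA7 groups than in WT mice, no point is filled between the SCA7 groups or at 9 weeks, and Gabrd and Neurod1 are lower at 25 than at 9 weeks.

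The 2 SCA7 groups were compared with each other to see whether the active hairpin moved these genes. No granule cell gene was called, nor was any of the 14862 genes tested with edgeR (0% of all genes, also with FC above 1.3), while DESeq2 called 24 genes, none of them a member. Before adjustment 1222 genes (8.22%) had p under 0.05, and 2 of these were members. Of the 10 log2 FCs 8 were negative, and their median was −0.07, against 0.00 for all genes.

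The unadjusted pair was Fat2 and Cadps2. Fat2 had 772, 850, 830, 836 and 903 CPM with AAV-shA4 and 869, 935, 981, 1013 and 910 CPM with AAV-shSCR. The groups overlapped by 1 mouse on each side, and the log2 FC was −0.17 (SE 0.062, edgeR BH-adjusted p = 0.532). For Cadps2 the highest AAV-shA4 mouse was at 357 CPM and the lowest AAV-shSCR mouse at 358 CPM, so that the groups did not overlap, as in 1.49% of all genes. Its log2 FC was −0.09 (SE 0.039, edgeR BH-adjusted p = 0.594), with an exact two-sided permutation p = 0.00794, the smallest being 0.00794 for 5 against 5 mice. A p that misses the threshold does not show that the groups were alike. The 95% interval of Zic2 was −0.07 to 0.11, that of Pax6 −0.17 to 0.02 and that of Gabra6 −0.07 to 0.09.

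The early WT mice were compared to see whether AAV-shA4 changed these genes without the disease allele. No granule cell gene was called by edgeR, while 2 had an unadjusted p under 0.05 and DESeq2 called 1. Over all genes 11.1% had an unadjusted p under 0.05, and DESeq2 called 130 genes. Of 14733 genes edgeR called 10 (0.0679%, and 0.0543% also with FC above 1.3). Exact permutation tests, two-sided, of 3 against 3 mice cannot go below p = 0.1. The median log2 FC of the 10 genes was −0.03, against 0.00 for all genes.

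Grin2c (ENSMUSG00000020734, chromosome 11 from 115249169 to 115267243, minus strand) was the member with the lowest p. It had 321, 371 and 404 CPM in the AAV-shA4-treated WT mice and 439, 464 and 464 CPM in the untreated WT mice. All treated mice lay below all untreated mice, a separation found in 16% of all genes. The means were 365 ± 42.0 CPM and 456 ± 14.3 CPM (n = 3 each, SD), a log2 FC of −0.32 (SE 0.074, edgeR BH-adjusted p = 0.176). DESeq2 called it, with an adjusted p of 0.00387, and so did edgeR without AAV-shA4-treated WT replicate 3, with a log2 FC of −0.40 (adjusted p = 0.0416). At 25 weeks, in the SCA7 mice, Grin2c was at 362 ± 25.2 CPM with AAV-shA4 and 390 ± 31.6 CPM with AAV-shSCR (n = 5 each, SD), with a log2 FC of −0.11 and a 95% interval of −0.24 to 0.02.

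Fat2 had 749, 898 and 857 CPM in the treated and 969, 1053 and 893 CPM in the untreated early mice. The groups overlapped by 1 mouse on each side, and the log2 FC was −0.22 (SE 0.075, edgeR BH-adjusted p = 0.331). Zic1, Zic2 and Pax6 had log2 FCs of 0.00, 0.01 and 0.01, with 95% intervals within −0.14 to 0.16.

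Untreated WT mice at the time labelled 25 weeks were also set beside those at 9 weeks. The 2 groups were sampled for different experiments, so that age and experiment cannot be told apart. Gabrd and Neurod1 were lower at 25 weeks, and 9 of the 10 log2 FCs were negative, with a median of −0.12 against 0.01 for all genes. Of the 10 genes 2 were called, both lower, where 23% of all 14875 genes were called and 11.1% as lower. None passed an FC above 1.3, as 5.14% of all genes did.

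Gabrd (ENSMUSG00000029054, chromosome 4 from 155384980 to 155398112, minus strand) had 202, 242, 243 and 241 CPM at 25 weeks and 275, 282 and 259 CPM at 9 weeks. The groups did not overlap, with replicate 1 the lowest late mouse and the other 3 close together. The log2 FC was −0.23 (SE 0.063, edgeR BH-adjusted p = 0.0276). Neurod1 (ENSMUSG00000034701, chromosome 2 from 79452521 to 79456751, minus strand) had 365, 404, 445 and 435 CPM at 25 weeks and 515, 506 and 447 CPM at 9 weeks, a log2 FC of −0.25 (SE 0.071, edgeR BH-adjusted p = 0.0323).

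The Neurod1 groups did not overlap, but only by the gap between 445 and 447 CPM, and 33.8% of all genes did not overlap here. Both calls were lost without untreated 9-week replicate 1 or 2. The log2 FC of Gabrd was then −0.22 or −0.20, and that of Neurod1 −0.21 or −0.22. Grin2c missed the threshold, with a log2 FC of −0.18 (adjusted p = 0.0544 in edgeR). DESeq2 called it (adjusted p = 0.0164), as did edgeR with robust dispersions (adjusted p = 0.0457). Without 25-week replicate 2 it was −0.23 (adjusted p = 0.0142 in edgeR), and Neurod1, at −0.24, was not called. Zic1 had a log2 FC of −0.15 and was not called (adjusted p = 0.139 in edgeR). It was called without the low 9-week replicate 3, at −0.23 (adjusted p = 0.0448 in edgeR), and with all 20 libraries in 1 fit, at −0.16 (adjusted p = 0.0403 in edgeR).

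Markers of other cell types moved between these 2 groups as well. Of 12 oligodendrocyte markers 9 were lower at 25 weeks, with a median log2 FC of −0.37 and summed levels of 5799.9 to 6868 CPM against 8129 to 8410 CPM. Of 10 microglia markers 5 were higher, with a median of 0.23 and sums of 246 to 276 CPM against 208 to 224 CPM. The part of these cells in the granule cell values was not tested.

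Across the 5 conditions the genes did not share an order. Zic2 had 3 WT groups with means of 275 to 299 CPM above 2 SCA7 groups at 225 and 228 CPM, and within each set neighbours differed by less than their SDs. Pax6 was highest in the AAV-shSCR-treated SCA7 mice and lowest in the late WT mice, and its 3 highest means, 139, 132 and 126 CPM, each followed the next by less than the larger SD. Cadps2 had its 2 highest means in the SCA7 groups, 367 and 346 CPM, a gap larger than either SD. The 3 WT groups were at 313 to 326 CPM. The gap from 346 CPM to the untreated 9-week mean of 326 CPM was smaller than the larger SD, 33.5 CPM. Gabrd, Neurod1 and Grin2c were highest in the untreated 9-week mice, at 272, 489 and 456 CPM, and lowest in the AAV-shA4-treated SCA7 mice, at 219, 378 and 362 CPM. No neighbouring pair of means of Etv1 or Fat2 differed by more than the larger SD.

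A further 18 genes known from granule cells, and not among the 10, were read in the same fits. In AAV-shSCR-treated SCA7 mice against WT mice 5 of the 18 were higher and 5 lower, and in AAV-shA4-treated SCA7 mice 3 were higher and 5 lower, with medians of −0.01 and 0.00. Of all genes 6.89% were higher and 8.65% lower with AAV-shSCR, and 5.47% and 8.11% with AAV-shA4. The largest decrease was in Grm4, which encodes a presynaptic glutamate receptor of parallel fibres. It was at 400 ± 17.3 CPM (n = 5, SD) with AAV-shSCR against 675 ± 47.5 CPM (n = 4, SD) in WT mice, a log2 FC of −0.76 (SE 0.046, edgeR BH-adjusted p = 1.25e-08).

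Among the others that fell in both SCA7 groups were Cbln1 (−0.25 with AAV-shSCR and −0.31 with AAV-shA4 on the log2 scale), which encodes a synaptic organiser released by parallel fibres, and its partner gene Cbln3 (−0.19 and −0.25), which was named after its values were seen. The genes that rose in both were Fstl5 (0.81 and 0.81), Nfib (0.33 and 0.30) and Nfia (0.31 and 0.20). NFIA and NFIB are transcription factors of granule cell maturation. Genes of the list moved in both directions in the SCA7 cerebellum.

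Of the 18 genes edgeR called 0 between the SCA7 groups, where 1 had an unadjusted p under 0.05 and DESeq2 called 0. At 9 weeks edgeR called 0 of the 18, while 4 had an unadjusted p under 0.05 and DESeq2 called 1. Of all genes 8.22% had such a p between the SCA7 groups and 11.1% at 9 weeks. At 25 against 9 weeks 1 was higher, Kcnk9, which encodes a potassium leak channel (0.42), and 7 were lower, where 11.1% of all genes were, among them Grm4 (−0.61), Cbln1 (−0.50) and Slc17a7 (−0.43), which encodes a vesicular glutamate transporter.

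Genes of granule cell progenitors, which are not expected in number in adult cerebellum, summed to 94.1 to 124 CPM over 8 genes. Of 7 tested, Ccnd1 rose (0.37 with AAV-shSCR, 0.36 with AAV-shA4) while Mycn fell (−0.40, −0.38) in both SCA7 groups. Gli1 fell with AAV-shA4 (−0.22).

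Paralogues of the members moved in both directions too. Neurod2, a relative of Neurod1, fell by 0.24 with AAV-shSCR and by 0.36 with AAV-shA4 on the log2 scale, and Cadps, the relative of Cadps2, rose by 0.12 with AAV-shA4.

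Markers of other cell types changed in the same libraries, which bears on each level relative to the whole tissue. PC markers summed to 11637 to 13128 CPM over 15 genes in the late WT mice, to 8179 to 9120 CPM with AAV-shSCR and to 8283 to 9598 CPM with AAV-shA4. In each SCA7 group 14 of 15 PC markers were lower than in WT mice, with medians of −0.45 and −0.41, and 0 were higher. Of 12 oligodendrocyte markers 6 were lower in each SCA7 group, with summed levels of 5799.9 to 6868 CPM in WT mice against 4261 to 5120 CPM with AAV-shSCR and 4734 to 5371 CPM with AAV-shA4.

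Of 11 Bergmann glia and astrocyte markers 4 and 6 were lower, of 12 interneuron markers 7 and 5 were lower, and of 6 unipolar brush cell markers Eomes was lower in both, with −1.17 and −1.06. Calb2, listed for unipolar brush cells and granule cells alike, was higher with AAV-shSCR (0.26). No marker of microglia (10 genes), meningeal fibroblasts (10), choroid plexus (8) or, of 2 tested, brainstem and midbrain was called in either SCA7 group by edgeR. At most 2 markers of such a list had an unadjusted p under 0.05 in a comparison of SCA7 mice with WT mice, and DESeq2 called 1 meningeal marker with AAV-shA4. None of the markers in these lists was at 0 in all libraries. Choroid plexus markers ranged widely, from 223 to 4914 CPM in sum over 8 genes with AAV-shA4, from 1038 to 4250 CPM with AAV-shSCR and from 1617 to 5646 CPM in the late WT mice. The part of these other cell types in the granule cell results was not tested. The sum of the 10 granule cell genes was 4246 to 5005 CPM in the late WT mice. It was 4668 to 4941 CPM with AAV-shSCR and 4283 to 4694 CPM with AAV-shA4, so that all 3 groups overlapped. WT and AAV-shA4-treated mice overlapped only through WT replicate 1, at 4246 CPM. The other late WT mice had 4864 to 5005 CPM, above all AAV-shA4-treated mice.

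**Figure D4:**
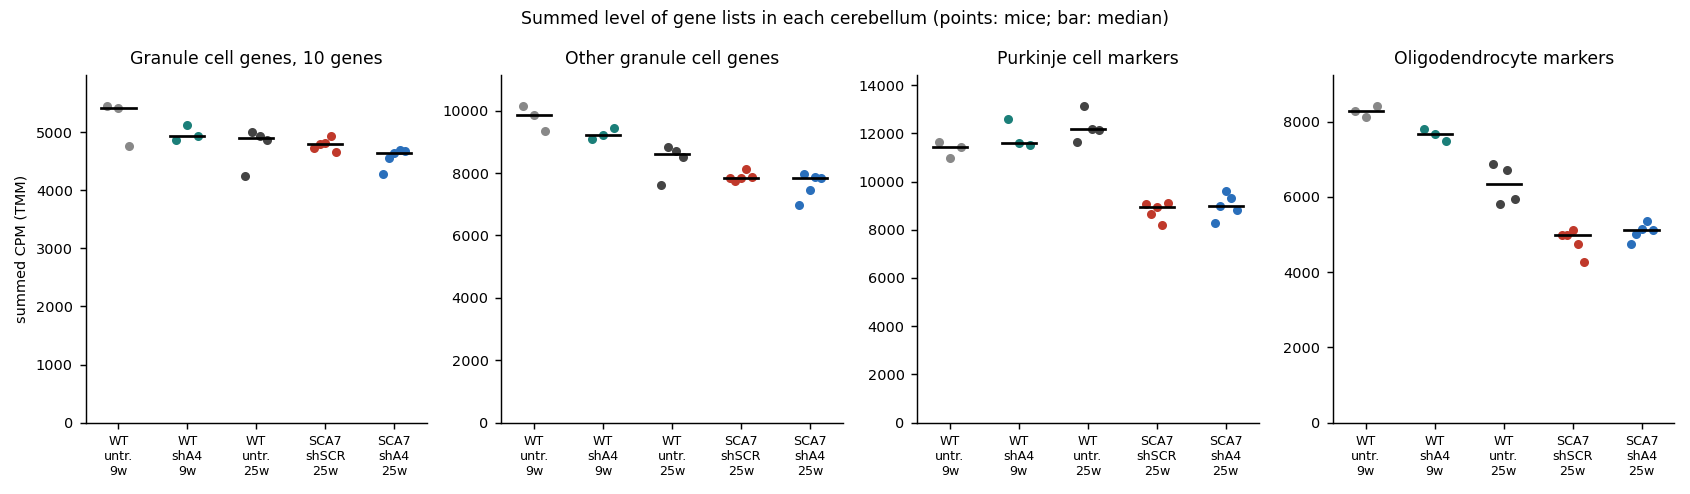
Summed level (CPM with TMM, y axes from 0) of 4 gene lists in each mouse, in the 5 conditions (x axes), with black bars at the medians. The 10 granule cell genes overlap between the late groups, for AAV-shA4 and WT only through WT replicate 1. PC and oligodendrocyte markers of the SCA7 mice lie below those of the late WT mice.

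The genes with the pattern most like that of each member were found by the root mean square (RMS) difference of log2(CPM + 0.1), centred on the gene mean, over the 20 libraries, among genes with a mean of at least 10 CPM. These are descriptions of libraries that share their groups. Zic2 was followed most closely by Auts2 (RMS difference 0.0636), Nptx1 (0.0637) and Cbln3 (0.0660), the last a granule cell gene. Pax6 was followed by Dnajb5 (0.0630), Lrrn1 (0.0643) and Pde3b (0.0660), and Cadps2 by Meis1 (0.0581), Zfpm2 (0.0583) and Kmt5b (0.0588). Among the members, Zic1 was in the second place in likeness to Neurod1 (0.0648), behind St6galnac4 (0.0599) and ahead of Arhgef7 (0.0660).

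Gabrd was followed by Arhgef7 (0.0451), Syt9 (0.0482) and, in the third place, Map3k12, Gabra6 by Zfand5 (0.0484), Ttc9 (0.0562) and Zc2hc1a (0.0567), and Zic1 by Prune1 (0.0544), Astn2 (0.0558) and Foxn3 (0.0562). For Grin2c the genes were Odf2 (0.0648), Chrd (0.0650) and Rtel1 (0.0668), for Fat2 Pxn (0.0579), Ppfia4 (0.0759) and Sirt4 (0.0776), and for Etv1, the least closely matched of the 10 by its first gene, Pan3 (0.0709), Clvs1 (0.0776) and Tmem65 (0.0820).

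The nearest protein-coding genes on either side of the members, without those that overlap a member, were read in the same fits. Rcn1 and Elp4, on either side of Pax6, had log2 FCs of −0.01 and −0.04 with AAV-shSCR against WT, with adjusted p of 0.958 and 0.711 from edgeR. The neighbours of Cadps2, Fezf1 and Tas2r118, had too few reads to be tested. Beside Gabrd, which did not pass the test in the SCA7 mice, Prkcz and Cfap74 fell by 0.12 and by 0.36 on the log2 scale with AAV-shSCR. Beside Neurod1, Itga4 rose in both SCA7 groups, with log2 FCs of 0.78 and 0.68, at a mean of 3.92 CPM. Tbc1d2b, 1087253 bases from Zic1, rose with log2 FCs of 0.14 and 0.13, while Zic4, which overlaps Zic1, was called in neither SCA7 group. Fdxr, 780 bases from Grin2c, was lower with AAV-shA4 (−0.18, edgeR BH-adjusted p = 0.0236), and the neighbours of Fat2 and Etv1 were not called in either SCA7 group.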

How the data were processed

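Cerebellar RNA of 20 mice was sequenced as single reads of 50 bases from stranded libraries. The authors trimmed reads with cutadapt 1.10, removed ribosomal reads with Bowtie2 2.2.8, mapped the rest with STAR 2.5.3a to mm10 (GRCm38) and counted them with HTSeq 0.6.1p1. The deposited counts are raw reads per gene, not normalized. Whether reads were counted by strand is not given in the sources used here.

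Counts of protein-coding genes of GENCODE M21 went into edgeR 4.0.16 in R 4.3.3 (TMM, filterByExpr with minimum count 10 and minimum total 15, quasi-likelihood test). The 14 late libraries, the 6 early libraries and the 7 untreated libraries were fitted separately. Genes were called at adjusted p under 0.05 (Benjamini-Hochberg over all genes tested), and a further rule added a fold change above 1.3. DESeq2 1.42.0, other scalings, filters, fits and left-out mice served as alternatives. Permutation tests were exact and two-sided on log2(CPM + 0.1). The methods were tested on simulated data.

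The members and lists were chosen with earlier results of these data known. All 10 members were named in each comparison, with up to 4 called genes of largest change per list and comparison, the neighbours and the 3 most similar genes per member. Other genes named, and the ratios, were chosen after their values were seen. In each of 32 pairs of mice of 1 condition, counts differed beyond sampling noise (chi-squared divided by its degrees of freedom, 4.73 to 25.1). Replicates are separate mice, and the labels do not say that their numbers pair the groups. Some genes of the lists are not reported here.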

Additional observations from a re-analysis of the deposited data

Results flagged for a closer look

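In groups of 4 or 5 mice, a mouse was marked when its gap to the nearest other mouse was a larger share of the range of the group than Dixon's 95% value. Of 30 groups of a gene and a condition, 4 held such a mouse, where chance marks about 1 in 20. The values of untreated WT replicate 1 at 25 weeks were below the other 3 mice for Gabrd (202 CPM against 241 to 243 CPM) and Zic2 (244 CPM against 282 to 288 CPM). For Cadps2, AAV-shSCR-treated SCA7 replicate 4 was high (389 CPM against 358 to 366 CPM) and AAV-shA4-treated SCA7 replicate 1 was low (322 CPM against 347 to 357 CPM). The cause was not tested.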

How the results depend on the processing

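Zic2 kept its call in both SCA7 groups against WT, and Pax6 and Cadps2 kept theirs with AAV-shSCR, under each alternative run. With all 20 libraries in 1 fit, 2 members were called with AAV-shA4 against WT instead of 4, since Zic1 (adjusted p = 0.0573 in edgeR) and Cadps2 (0.0869) lost their calls. The replicate block called 1 member, Grin2c, at 9 weeks and 0 at 25 against 9 weeks, and DESeq2 called 1 at 9 weeks. The labels do not say that the replicate numbers pair the mice. The correlation of same-numbered mice ran from 0.539 to −0.0178 between AAV-shA4-treated SCA7 and WT mice, and the block also took the call of Zic1 with AAV-shA4. Library totals in place of TMM turned the sign of 3 uncalled genes with AAV-shSCR against WT, to 0.023 for Gabrd, 0.0286 for Neurod1 and 0.00242 for Grin2c, and called Gabra6 in both SCA7 groups (0.15 and 0.16).

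With mice left out in turn, the number of members called ran from 3 to 4 with AAV-shSCR, from 2 to 5 with AAV-shA4, from 0 to 1 at 9 weeks, from 0 to 3 for 25 against 9 weeks and stayed at 0 between the SCA7 groups. Signs turned only where no call was made. With AAV-shSCR against WT, Fat2 ran from −0.036 to 0.0775, Grin2c from −0.0935 to 0.00736 and Neurod1 from −0.0736 to 0.0197. Between the SCA7 groups, Etv1 ran from −0.0441 to 0.0267, Zic2 from −0.00584 to 0.0433 and Gabra6 from −0.00845 to 0.0202. At 9 weeks, Gabra6 ran from −0.020 to 0.10, Pax6 from −0.0508 to 0.048, Zic1 from −0.068 to 0.0544 and Zic2 from −0.0509 to 0.0783, and for 25 against 9 weeks Etv1 ran from −0.10 to 0.0837. The cause of these changes was not tested. Depth limits none of the 10 genes, and the number of mice sets the precision.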
